A study of Mus musculus with 12 samples.

Results

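The immunity-related GTPases are a family of large GTPases of the mouse whose genes are switched on by interferons, mainly by interferon gamma. The regulatory members (the GMS proteins) sit on the cell's own membranes and hold the other members in an inactive state, while the effector members (the GKS proteins) coat the vacuoles of intracellular parasites and bacteria and disrupt them, a step for which the autophagy conjugation proteins are needed. In cells without interferon exposure the effector members are usually close to silent. The family was taken here as the genes Irgm1, Irgm2 and Igtp, which encode regulatory members, and Iigp1, Tgtp1, Tgtp2 and Ifi47, which encode effector members. These are 7 of the 54232 genes of the deposited count table, and each was found by matching its Ensembl identifier to its symbol. All 7 passed the filter on low counts, which asked for 0.901 CPM in at least 3 libraries. Iigp1, Tgtp1 and Tgtp2 passed it only through the Tumor and Lyso libraries, so their place in the counts and medians below follows in part from the groups in which they are high, and these counts are given as a description.

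RNA of B16F10 cells, a melanoma line of C57BL/6 mice, was sequenced in 12 libraries, 3 in each of 4 groups. WT cells were cultured and left untreated. The relapsed lines ITF1, ITM and Rel came from B16 tumors that had grown back in mice after immunotherapy (anti-CD40, TNFα and an antibody to TRP1) and were cultured before RNA was taken, so that each library is a line of its own. Tumor 1, 3 and 4 were B16 cells sorted from such tumors under the skin of mice, with no culture before extraction. The labels give an age of 6 weeks and the methods an older range. Lyso 1, 2 and 3 were B16F10 cells exposed to lysosomes or granules of T cells, which the methods describe as material concentrated from the supernatant of activated CD8+ T cells. The labels give 48 hours for that exposure and the methods a shorter time, so its length is not certain. Whether the libraries of WT and Lyso came from separate cultures is not stated in the sources used here, and p-values then measure the spread between these libraries only.

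Counts on genes came to 1667398, 2350129 and 16384021 in WT 1, 2 and 3, to between 12749399 and 16402629 in the relapsed lines, to between 3102442 and 5049496 in Tumor and to between 10895611 and 12675277 in Lyso. A total of 3 counts, below which a gene was taken as not detectable in a library, was worth 1.7 CPM (normalized counts, relative to the TMM-scaled total of the library) in WT 1, beside 1.27 and 0.177 CPM in WT 2 and WT 3, a limit that covers only counting error. The 10 melanocyte markers examined summed to between 19810 and 37434 CPM in every library. The 10 fibroblast markers summed to between 7707 and 10709 CPM in Tumor and to at most 39.5 CPM in the cultured libraries, so the sorted Tumor libraries also held RNA typical of fibroblasts. In such bulk RNA, fewer cells of a type and less RNA per cell cannot be told apart.

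On GRCm38, the 6 genes other than Iigp1 lie on chromosome 11. Irgm1 (ENSMUSG00000046879) spans 48861968 to 48871683 on the minus strand, Tgtp1 (ENSMUSG00000078922) 48985327 to 48994172 and Tgtp2 (ENSMUSG00000078921) 49057194 to 49064206, also on the minus strand, and Ifi47 (ENSMUSG00000078920) 49076587 to 49096974 on the plus strand. Further along, Igtp (ENSMUSG00000078853, 58199556 to 58207591) and Irgm2 (ENSMUSG00000069874, 58199618 to 58222782) overlap on the plus strand and share 162 exonic bases, whose reads are counted for neither gene. Tgtp1 and Tgtp2 are near-identical copies. Of the 75-base windows of their transcripts, 77.2% for Tgtp1 and 81.4% for Tgtp2 were also found in another gene, and reads from such windows are absent from the counts, so both genes are underestimated and their levels are uncertain. The share was 0% for Irgm1 and Iigp1, 1.5% for Ifi47, 4.8% for Irgm2 and 7.8% for Igtp.

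The promoters of these genes are shown because the members moved together across the libraries. RefSeq promoters of build GRCm38.p6 were matched for 6 members, and the 250 bases before each start site were searched on both strands for GAAA followed by any 2 bases and GAAA, the core of the interferon-stimulated response element (ISRE), and for TTCNNNGAA, the core of the gamma-activated site (GAS). An ISRE match was present in 5 of the 6 and a GAS match in 4 of the 6, beside shares of 2.98% and 7.02% of all 32851 promoters. In Irgm2, Igtp, Tgtp1, Tgtp2 and the neighbouring family gene Gm12185 the GAS match was followed after 2 bases by the ISRE match. This arrangement occurred in 5 of the 32851 promoters (0.0152%), which are the promoters of those 5 genes. The spacing searched for was the one seen in these genes, so the share describes their sequences and is no test. The stretches are given 5′ to 3′ on the strand of the gene, with both matches in capitals.
Irgm2 (chr11:58214882-58214932, plus strand): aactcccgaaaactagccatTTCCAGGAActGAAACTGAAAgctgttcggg
Igtp (chr11:58199491-58199541, plus strand): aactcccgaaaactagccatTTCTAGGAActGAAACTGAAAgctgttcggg
Tgtp1 (chr11:48992304-48992354, minus strand): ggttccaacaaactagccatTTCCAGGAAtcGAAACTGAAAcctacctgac
Tgtp2 (chr11:49064263-49064313, minus strand): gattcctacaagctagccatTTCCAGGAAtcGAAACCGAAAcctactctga
Gm12185 (chr11:48927238-48927288, minus strand): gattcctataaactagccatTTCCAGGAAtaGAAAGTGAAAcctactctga
The stretches of Irgm2 and Igtp are identical at 50 of 51 bases, those of Tgtp1 and Tgtp2 at 42 of 51, and those of Irgm2 and Tgtp1 at 36 of 51. The matches began 75 bases before the start site in Irgm2, 45 in Igtp, 88 in Tgtp1 and 81 in Tgtp2. Irgm1 differed in that it held a pair of overlapping ISRE matches and no GAS match, and they are printed in capitals here. This stretch, unlike the others, lies within an annotated exon of Irgm1 itself.
Irgm1 (chr11:48871429-48871458, minus strand): tgtttcaaGAAATAGAAACCGAAActgatt
For Ifi47 no match to either motif was recorded, which says only that these letters were not found or that its promoter was not among the 6. A match is a description of the letters and not of a bound factor.

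Exposure to T-cell granules was compared with untreated culture to ask which genes changed in the treated cells. All 7 genes were higher in Lyso than in WT, and in each of them the 3 Lyso libraries lay within a narrow range above every WT library. Against a background of 2.43% of the 14924 genes tested that were called higher (adjusted p under 0.05 and a log2 fold change over 1), 7 of 7 members were called, among them all 4 that passed the filter also without Tumor and Lyso (Irgm1, Irgm2, Igtp and Ifi47). In 15.8% of all genes tested every Lyso library lay above every WT library, as in 7 of 7 members.

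Irgm1, a regulatory member needed for survival of mice in many intracellular infections, had 12.5, 24.9 and 167 CPM in WT 1, 2 and 3 and 1354, 1419 and 1455 CPM in Lyso 1, 2 and 3. WT 3 stood well above the other WT libraries and still below every Lyso library. The log2 fold change was 4.25 (standard error, SE, 0.91), with an adjusted p of 0.0182 by the quasi-likelihood test of edgeR and Benjamini-Hochberg adjustment. Irgm2, the second regulatory gene, had 5.09, 3.38 and 29.0 CPM in WT and 567, 554 and 555 CPM in Lyso. Here too WT 3 was the highest of the untreated libraries, and the groups did not overlap. The log2 fold change was 5.12 (SE 0.92, edgeR adjusted p = 0.00669). Igtp, which encodes the regulatory protein Irgm3, had 2.26, 1.27 and 10.9 CPM in WT and 1246, 1306 and 1347 CPM in Lyso. It rose from a level below that of Irgm2 to one far above it on the CPM scale, with a log2 fold change of 7.56 (SE 1.04, edgeR adjusted p = 0.00114).

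The effector genes started from almost no counts. Iigp1 (ENSMUSG00000054072, chromosome 18, 60376027 to 60392634, plus strand), which encodes the effector Irga6, had 0, 0 and 0.295 CPM in WT and 364, 389 and 421 CPM in Lyso. Only WT 3 had any counts, 5 in all, and the fitted log2 fold change was 10.64 (SE 1.18, edgeR adjusted p = 0.000345). Tgtp1, one of the pair of genes for the effector Irgb6, had 0 counts in every WT library and 61.2, 69.1 and 66.1 CPM in Lyso. Since WT had no counts, the fold is given as a lower bound, with counts pooled over Lyso against 3 counts over the whole WT group. This bound put Lyso at least 461-fold higher for Tgtp1 (log2 of at least 8.85, edgeR adjusted p = 0.00578). Tgtp2, its copy, had 0, 0.844 and 0.177 CPM in WT and 142, 148 and 151 CPM in Lyso. Its WT values rest on 5 counts in all and lay at or under 3 counts in each library, and the log2 fold change was 9.17 (SE 1.17, edgeR adjusted p = 0.000771). Ifi47, which encodes the effector Irgd, had 0.566, 1.27 and 3.66 CPM in WT and 210.3, 254 and 268 CPM in Lyso. It was the effector gene with the highest level in WT, and its log2 fold change was 6.45 (SE 0.91, edgeR adjusted p = 0.00131). The median log2 fold change over the 7 members was 7.56, also with Tgtp1 at its bound, beside a median of -0.005 over all genes tested.

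The size of these changes depended on WT 3. Without it, the log2 fold changes were 6.21 for Irgm1, 7.08 for Irgm2, 9.57 for Igtp, 7.97 for Ifi47 and 8.21 for Tgtp2, while Iigp1 was left with 0 counts in WT and its fitted change was then no bound. With WT 3 as the only control, a lone library assumed to vary as the other groups do, 4 of 7 members were called, and Irgm1 (log2 fold change 3.06), Irgm2 (4.26) and Igtp (6.89) were not, at edgeR adjusted p-values of 0.182, 0.121 and 0.0508. Irgm1 also lost its call without WT 2 (adjusted p = 0.0686, edgeR) and without Lyso 1 (adjusted p = 0.052, edgeR). A small signal of T-cell transcripts moved with the Lyso group. The 12 T and NK cell markers summed to between 15.6 and 17.5 CPM in Lyso and to between 1.27 and 6.79 CPM in WT. The WT sums were Lck alone, at 6.79, 1.27 and 1.36 CPM in WT 1, 2 and 3. In Lyso Lck had 6.13, 5.87 and 5.35 CPM, below WT 1. In Lyso 1, 2 and 3 Gzmb had 6.03, 6.71 and 5.1 CPM, Cd8a 2.07, 1.21 and 2.27 CPM and Cd8b1 1.23, 1.30 and 1.30 CPM. These genes had 0 counts in WT, and Cd3d and Cd3e stayed under 1 CPM throughout. The 10 myeloid markers summed to between 33.4 and 37.3 CPM in Lyso and to between 12.5 and 29.2 CPM in WT. In Lyso 1, 2 and 3 Cd68 had 20.1, 19.1 and 17.2 CPM, Csf1r 11.1, 13.0 and 12.2 CPM and Ptprc 3.02, 3.63 and 2.19 CPM. Cd68 also had 16.6 CPM in WT 3, and Csf1r had 9.62, 7.18 and 9.79 CPM in WT 1, 2 and 3. Ptprc had at most 0.422 CPM in WT. Lyz2 went the other way, with a mean of 1.32 CPM in Lyso and 1.93 CPM in WT, and its libraries overlapped. Of the 8 myeloid markers tested, only Ptprc was called higher in Lyso against WT (adjusted p = 0.0136, edgeR). C1qa, C1qb, Itgam and Fcgr1 had 0 counts in Lyso. The part of T-cell and myeloid transcripts in the rise of the family was not tested.

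**Figure D1:**
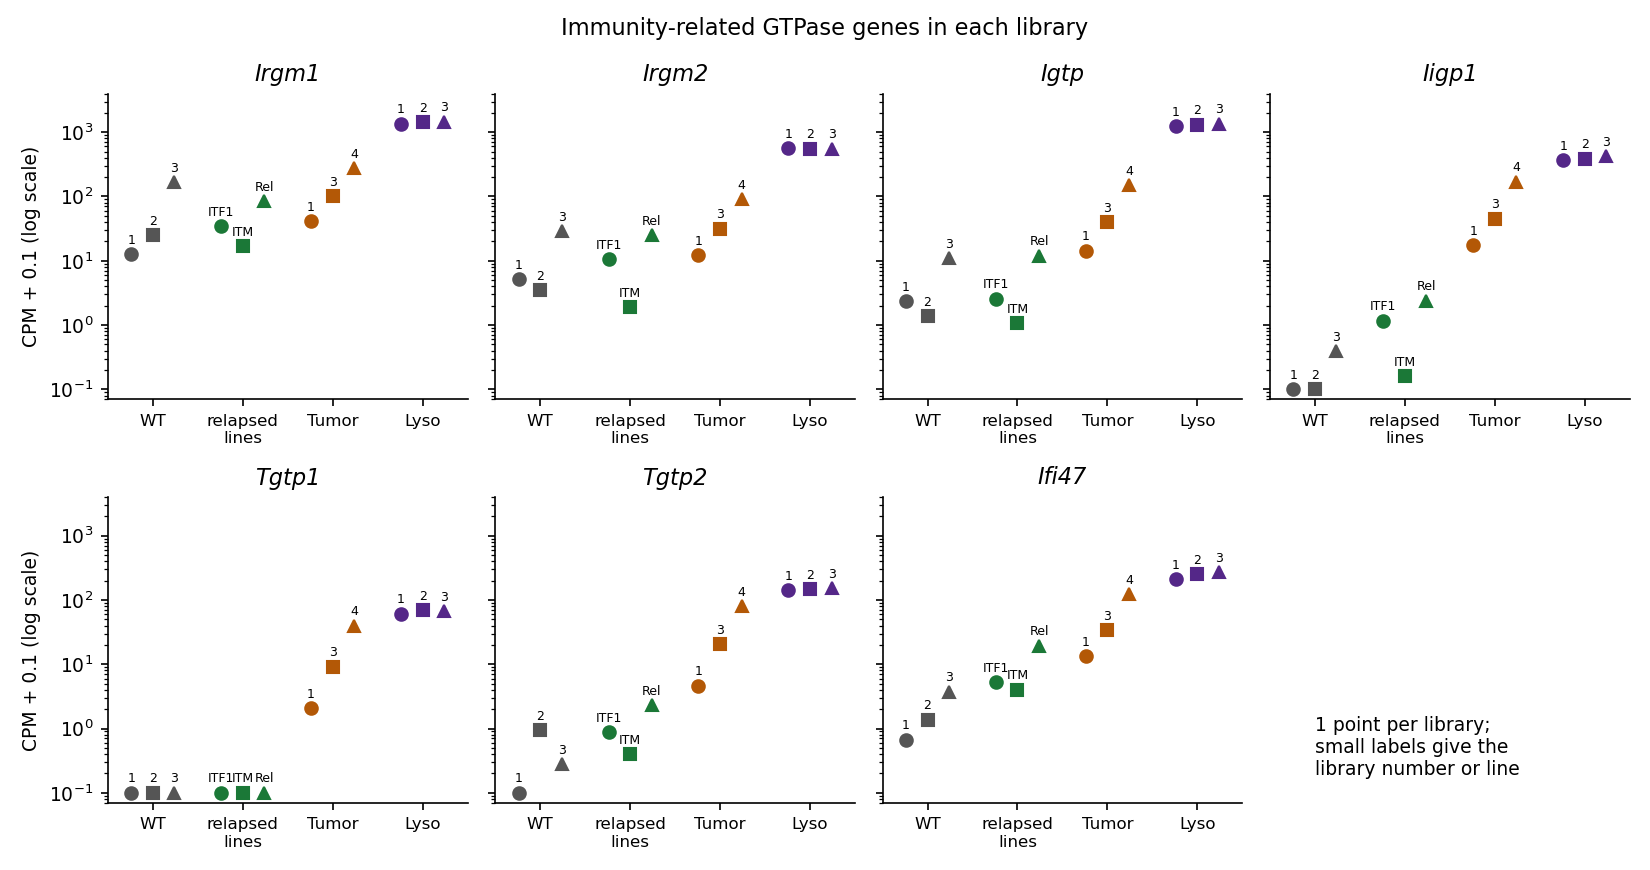
Level of each of the 7 genes in each of the 12 libraries, as CPM + 0.1 on a log scale, 1 point per library, with libraries grouped along the horizontal axis. Lyso libraries cluster tightly at the top of every panel, Tumor libraries are spread out in the order 1, 3, 4, and WT 3 and Rel stand above the other libraries of their groups in Irgm1, Irgm2 and Igtp.

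Cells sorted from relapsed tumors were compared with the same untreated libraries. The effector genes and Igtp were higher in Tumor, while Irgm1 and Irgm2 did not pass the test. Of the 7 members, 5 were called higher, against a background of 8.56% of the genes tested. In those 5 genes every Tumor library lay above every WT library, which was true of 21% of all genes tested. The Tumor comparison shares its WT libraries with the Lyso comparison, so their values are given side by side and are not independent.

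Iigp1 had 17.2, 44.9 and 170.2 CPM in Tumor 1, 3 and 4, with a log2 fold change against WT of 8.31 (SE 1.23, edgeR adjusted p = 0.000531). Every Tumor library was far above the highest WT value of 0.295 CPM. Tgtp1 had 1.95, 9.06 and 39.8 CPM, which put Tumor at least 126-fold above WT (log2 of at least 6.98, edgeR adjusted p = 0.0077). Its value in Tumor 1 rests on 6 counts, and the bound is for the pooled Tumor libraries and not for each of them. Tgtp2 had 4.55, 20.3 and 79.1 CPM, with a log2 fold change of 7.11 (SE 1.26, edgeR adjusted p = 0.00178). Ifi47 had 13.3, 34.0 and 122 CPM, and it rose by 4.35 on the log2 scale (SE 0.90, edgeR adjusted p = 0.0047). In these 4 effector genes the lowest library was Tumor 1 and the highest Tumor 4.

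Among the regulatory genes, Igtp had 14.3, 39.5 and 149.9 CPM in Tumor 1, 3 and 4, and its log2 fold change was 3.31 (SE 0.93, edgeR adjusted p = 0.0259). Tumor 1 was only slightly above WT 3, at 10.9 CPM, so the groups were close to overlapping. Irgm1 had 41.0, 101 and 276 CPM, with Tumor 1 and Tumor 3 below the 167 CPM of WT 3 and only Tumor 4 above it. Its log2 fold change was 0.92 (SE 0.82, edgeR adjusted p = 0.481). Irgm2 had 12, 31.6 and 91.1 CPM, with Tumor 1 below WT 3, and its log2 fold change was 1.5 (SE 0.85, edgeR adjusted p = 0.246). With SEs of this size, neither a rise of Irgm1 and Irgm2 nor its absence is shown. The median log2 fold change over the 7 members was 4.35, also with Tgtp1 at its bound, beside 0.001 over all genes tested.

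Single libraries decided several of these calls. Without WT 3, Irgm1 was called higher at a log2 fold change of 2.87 (adjusted p = 0.0465, edgeR), Irgm2 reached 3.46 (adjusted p = 0.088) and Igtp 5.32, while Ifi47 stood at 5.87 and Tgtp2 at 6.15, and Iigp1 had no WT counts left. Tgtp1 lost its call (adjusted p = 0.0648) with its fitted log2 change hardly moved, from 10.33 to 10.22, both against 0 counts. Without Tumor 4, Irgm1 turned to -0.04 (adjusted p = 0.988, edgeR) and Igtp lost its call at 2.01 (adjusted p = 0.148), as it also did without WT 2 (adjusted p = 0.0773). Without Tumor 4 the called effector genes kept their calls at smaller values, such as 5.69 for Tgtp2 and 3.13 for Ifi47.

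The spread among the Tumor libraries was itself a common pattern of the family. Tumor 4 exceeded Tumor 1 by between 6.74-fold for Irgm1 and 20.4-fold for Tgtp1, and Tumor 3 exceeded Tumor 1 by between 2.48-fold and 4.64-fold. The 7 genes together came to 104 CPM in Tumor 1, 281 CPM in Tumor 3 and 928 CPM in Tumor 4. Over the same libraries the fibroblast markers fell in sum from 10709 to 8745 and 7707 CPM, the opposite order. The 10 myeloid markers rose in sum from 54.0 to 70.4 and 78.9 CPM, less than the family did, with Ptprc, the pan-leukocyte CD45, at 1.95, 2.21 and 5.88 CPM and C1qa and C1qb at between 4.23 and 7.77 CPM. The 10 melanocyte markers summed to 20546, 22141 and 22660 CPM. The 12 T and NK cell markers summed to 4.23, 4.03 and 9.89 CPM, highest in Tumor 4 as the family was. Among them Lck had 3.90, 2.21 and 6.12 CPM and Cd8a 0, 0.403 and 0.942 CPM, while Cd3d, Cd3e and Cd8b1 were at 0 in all 3 libraries. The 8 endothelial markers summed to 309, 278 and 324 CPM. Most of this was Eng, at 258, 227 and 277 CPM and at 253 CPM or more in culture. Tek had 4.88, 8.86 and 8.94 CPM, Kdr 4.55, 4.43 and 3.77 CPM and Cdh5 6.83, 3.42 and 4.71 CPM. In the cultured libraries Tek had at most 0.0768 CPM, Cdh5 at most 0.059 CPM and Kdr 0. The part of these other cells in the family's level in Tumor was not tested.

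**Figure D2:**
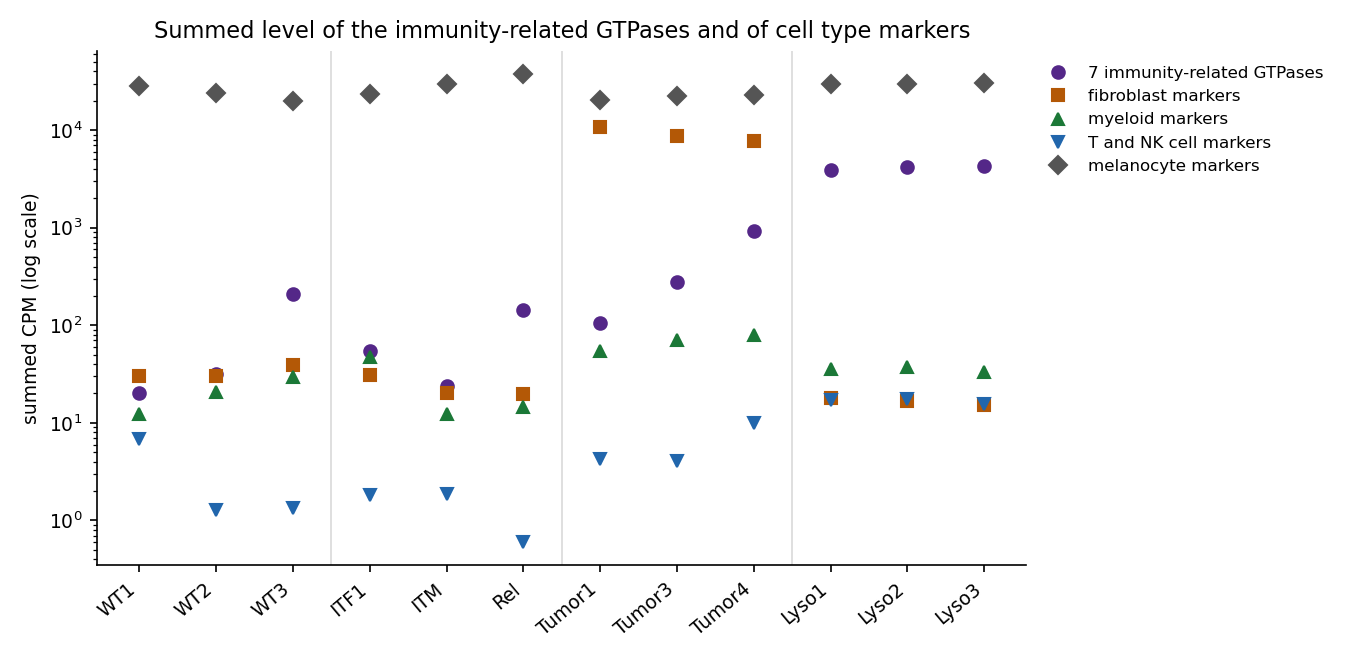
Summed CPM (log scale) in each library of the 7 immunity-related GTPases and of markers of fibroblasts, myeloid cells, T and NK cells and melanocytes, 1 point per library and list. The family rises from 104 to 928 CPM across Tumor 1, 3 and 4 while the fibroblast markers fall from 10709 to 7707 CPM, and in Lyso the family stands at 3945 CPM or more with fibroblast markers at 18.0 CPM or less.

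Lines grown from relapsed tumors were compared with WT to ask whether changes outlast culture. No member passed the test in the relapsed lines. Of the 7 members, 0 were called by edgeR, while 0.0134% of all genes tested were called higher and 0.0268% lower. An unadjusted p under 0.05 from edgeR was reached by 0 members, beside 1636 of all 14924 genes tested. DESeq2 called 0 members and gave no adjusted p for Irgm1 and Irgm2. Ifi47 had 5.14, 3.89 and 19.4 CPM in ITF1, ITM and Rel, all above the highest WT library at 3.66 CPM. Its log2 fold change was 1.76 (SE 0.91, edgeR adjusted p = 0.51), and it was the 1 member of 7 whose libraries did not overlap, as in 6.43% of all genes tested. Its value was 0.68 without Rel and 3.27 without WT 3. Without the filter on low counts it was called, with an adjusted p of 0.00573 from edgeR at 1.78.

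Irgm1 had 34.3, 16.8 and 83.7 CPM in ITF1, ITM and Rel, Irgm2 had 10.5, 1.80 and 24.6 CPM, and Igtp had 2.46, 0.959 and 11.8 CPM. In all 3 genes Rel was the highest line and ITM the lowest, and every line lay within or below the range of the WT libraries, apart from Rel in Igtp. The log2 fold changes were -0.72 for Irgm1, -0.38 for Irgm2 and -0.43 for Igtp, at edgeR adjusted p-values of 0.786, 0.912 and 0.912. These signs depended on WT 3, without which the values were 1.22, 1.56 and 1.56, and on ITM, without which Irgm2 was at 0.11 and Igtp at 0.05. Iigp1 had 1.08, 0.0599 and 2.28 CPM and Tgtp2 0.768, 0.300 and 2.21 CPM in the same lines, with log2 fold changes of 2.19 (SE 1.79) and 2.10 (SE 1.78) that rest on 5 counts of each gene in WT. Without Rel these were 1.10 and 1.04. Tgtp1 had 0 counts in all 3 lines, as in WT. Rel exceeded ITF1 by between 2.12-fold and 4.82-fold in the 6 members with counts, so the lines differed among themselves in the same direction.

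Tumor cells taken straight from the tumor were then set against the cultured relapsed lines. Again 5 of the 7 members were called higher in Tumor, against 8.36% of the genes tested, and they were Igtp and the 4 effector genes. Iigp1 was higher by 6.12 on the log2 scale (SE 0.84, edgeR adjusted p = 0.000215) and Tgtp2 by 5.01 (SE 0.81, adjusted p = 0.000799). Over the pooled Tumor libraries, Tgtp1 was at least 266-fold higher (log2 of at least 8.06, adjusted p = 0.00184, edgeR). Igtp was higher by 3.75 (SE 0.88, edgeR adjusted p = 0.00966) and Ifi47 by 2.59 (SE 0.70, adjusted p = 0.0199). For Ifi47 the groups overlapped, since Rel at 19.4 CPM lay above Tumor 1 at 13.3 CPM. Every Tumor library was above every line in 4 of 7 members, as in 20.1% of all genes tested. Irgm1 (1.64, SE 0.83) and Irgm2 (1.89, SE 0.82) stood at edgeR adjusted p-values of 0.191 and 0.129. Without Tumor 4 the count of members called fell to 3, with Igtp at an adjusted p of 0.0666 and Ifi47 at 0.169, and without Rel it rose to 6, with Irgm2 at 2.91 (adjusted p = 0.0478). Ifi47 further lost its call without ITF1 (adjusted p = 0.0555) and without ITM (adjusted p = 0.0519).

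Lyso cells also stood above the relapsed lines in 7 of 7 members, against 3.21% of the genes tested, with no overlap in any member, which held for 15.3% of all genes. The log2 fold changes were 4.97 for Irgm1, 5.51 for Irgm2, 8.0 for Igtp, 8.44 for Iigp1, 7.07 for Tgtp2 and 4.68 for Ifi47, with adjusted p-values between 0.000133 and 0.00648 from edgeR. Tgtp1 was at least 975-fold higher (log2 of at least 9.93, adjusted p = 0.00144). No library left out in turn ended any of these 7 calls, with a largest adjusted p of 0.0244 for Irgm1. Without Rel, the line with the highest levels, the values were larger, such as 9.6 for Igtp and 5.76 for Ifi47.

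**Figure D3:**
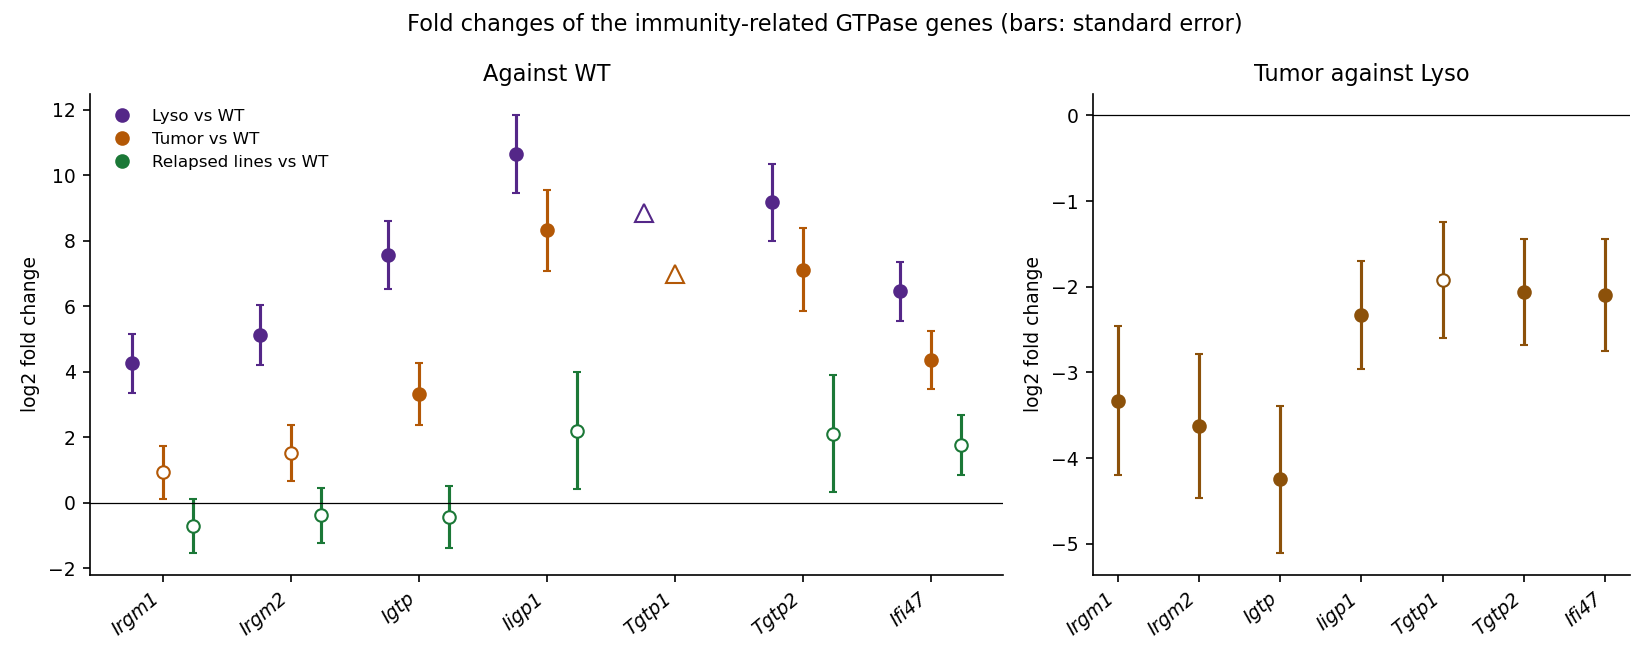
Log2 fold change of each gene with its standard error, against WT (left) and for Tumor against Lyso (right), where filled points were called changed, open points were not, and the triangles of Tgtp1, called in Lyso and in Tumor against WT, are lower bounds against 3 counts over the WT group. Every Lyso value lies above the Tumor value of the same gene, and values of the relapsed lines lie near 0 for Irgm1, Irgm2 and Igtp.

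The family was then compared directly between Tumor and Lyso. Every Tumor library was below every Lyso library in 7 of 7 members, as in 26.8% of all genes tested. Called lower in Tumor were 6 of 7 members, against 4.14% of the genes tested. The point estimates were largest for the regulatory genes, which was not tested as a difference between genes. Igtp was lower by 4.25 on the log2 scale in Tumor (log2 fold change -4.25, SE 0.86, edgeR adjusted p = 0.00303), Irgm2 by 3.62 (-3.62, SE 0.84, adjusted p = 0.00714) and Irgm1 by 3.33 (-3.33, SE 0.87, adjusted p = 0.0141). The effector genes lay closer together, with -2.33 for Iigp1 (SE 0.63, edgeR adjusted p = 0.0169), -2.06 for Tgtp2 (SE 0.62, adjusted p = 0.0285) and -2.10 for Ifi47 (SE 0.66, adjusted p = 0.0341). Tgtp1 at -1.92 (SE 0.68) missed the threshold with an adjusted p of 0.0707 from edgeR. The lowest Lyso library exceeded the highest Tumor library by between 1.54-fold for Tgtp1 and 8.31-fold for Igtp. Several of these calls crossed the threshold with 1 library left out. The count of members called lower was 3 without Tumor 1, 2 without Tumor 3 and 7 without Tumor 4, and 1 with DESeq2. Irgm1 lost its call without Tumor 1 (adjusted p = 0.0556, edgeR) and without Tumor 3 (0.0672), Iigp1 without Tumor 3 (0.0824), Tgtp2 and Ifi47 without Tumor 1, Tumor 3 or any Lyso library (with the changes at -2.05 to -2.09 and -2.03 to -2.20 without a Lyso library), and Tgtp1 was called without Tumor 4 at -3.46 (adjusted p = 0.00165).

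The balance between regulatory and effector genes followed the groups. Irgm1, Irgm2 and Igtp made up 97.2%, 93.3% and 98.05% of the family's counts in WT 1, 2 and 3, with a 95% Wilson interval in the shallow WT 1 of 85.8% to 99.5%. They made up 87.1%, 82.1% and 83.4% in ITF1, ITM and Rel and 80.3%, 79.2% and 78.8% in Lyso 1, 2 and 3. In Tumor 1, 3 and 4 their share was 64.5%, 61.4% and 55.7%, with intervals of 59.1% to 69.5%, 58.85% to 63.95% and 54.15% to 57.25%, which cover counting error only. The means were 96.2% ± 2.52 (SD, n = 3) in WT, 84.2% ± 2.60 in the relapsed lines, 79.4% ± 0.796 in Lyso and 60.5% ± 4.46 in Tumor. All Tumor libraries thus lay below all others, and effector genes made up more of the family there than in Lyso, although the family's total was 437.8 ± 434 CPM in Tumor and 4115 ± 160 CPM in Lyso (SD, n = 3). Scaled to exonic length the shares were 62.3%, 59.3% and 55.4% in Tumor and 82.4%, 81.2% and 80.9% in Lyso, so that Tumor remained below Lyso. On that scale the relapsed lines lay at 79.8%, 69.5% and 74.98%, below Lyso, whereas by counts they lay above it, so the order of these 2 groups depends on the scale.

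**Figure D4:**
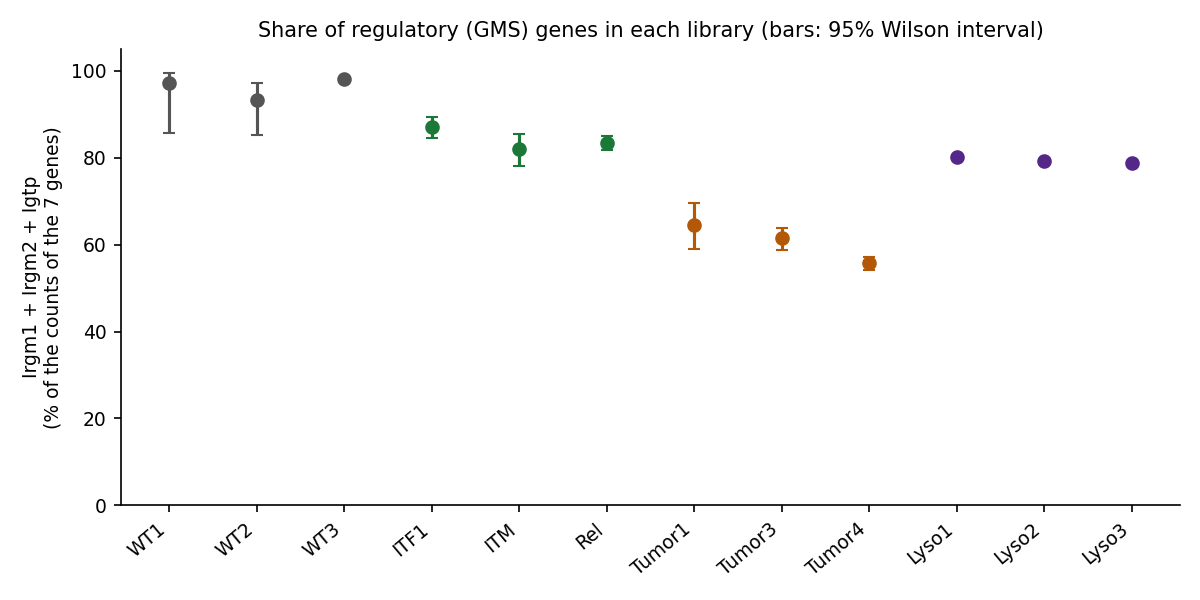
Share of the family's counts that fell on the regulatory genes Irgm1, Irgm2 and Igtp in each library, in percent, with 95% Wilson intervals for counting error as bars. Tumor libraries lie between 55.7% and 64.5%, Lyso libraries between 78.8% and 80.3%, and WT libraries above 93%.

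Levels of different genes were compared per kilobase of exon. In Lyso the order was Igtp (643 ± 25.0 CPM per kb, SD, n = 3), Irgm1 (243 ± 8.73), Irgm2 (151 ± 1.95), Ifi47 (98.7 ± 12.2), Iigp1 (67.2 ± 4.88), Tgtp2 (49.96 ± 1.63) and Tgtp1 (20.4 ± 1.25), and every library had this order. In WT, Irgm1 came first (11.7 ± 14.8 CPM per kb) ahead of Irgm2 (3.39 ± 3.88), Igtp (2.37 ± 2.61) and Ifi47 (0.740 ± 0.655), with SDs as large as the means but the same order in each WT library. Igtp thus moved from the third place in WT to the first in Lyso. In Tumor it was also first (33.6 ± 35.7 CPM per kb), ahead of Irgm1 (24 ± 21) and Ifi47 (22.8 ± 23.4), with SDs about as large as the means, which reflect the rise from Tumor 1 to Tumor 4 in all genes. Within a library, Ifi47 exceeded its neighbour Iigp1 by 1.82, 1.78 and 1.69-fold in Tumor 1, 3 and 4 and Tgtp2 exceeded Tgtp1 by 2.17-fold or more, whereas the order of Irgm1 and Ifi47, of Iigp1 and Irgm2 and of Irgm2 and Tgtp2 was not the same in the 3 libraries. In the relapsed lines Irgm1 (7.74 ± 5.98 CPM per kb) was followed by Ifi47 (3.84 ± 3.49), which was above Irgm2 in 2 of the 3 lines. The levels of Tgtp1 and Tgtp2 are underestimates on this scale, for the reads they share.

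Of 10 further genes of the family, 7 could be tested. Of these, 6 were called higher in Lyso and the same 6 in Tumor against WT, beside 2.43% and 8.56% of all genes tested. These 6 had at most 1.004 CPM in any WT or relapsed library and passed the filter on low counts only through Tumor and Lyso. Their counts therefore follow in part from the groups in which they are high and are given as a description. Gm12250, the gene of the effector Irgb10, which is annotated here as a processed pseudogene, had at most 0.422 CPM in WT, 0.650, 5.43 and 26.1 CPM in Tumor 1, 3 and 4, and 82.6, 97.2 and 94.1 CPM in Lyso. Gm12185, whose promoter is printed above, had 0 counts in WT. Its levels were 0.325, 1.61 and 9.65 CPM in Tumor and 54.3, 51.8 and 50.5 CPM in Lyso. Pooled over the libraries of a group, it was at least 366-fold higher in Lyso and at least 28.6-fold higher in Tumor. Its counts in Tumor 1, 3 and 4 were 1, 8 and 41, so the Tumor bound does not describe Tumor 1. The order of the Tumor libraries was that of the 7 members in both. Gm4841 was at least 162-fold and F830016B08Rik at least 39-fold higher in Lyso than in WT, again with 0 counts in WT. Gm4951 and 9930111J21Rik2 were not called lower in Tumor than in Lyso, with log2 fold changes for Tumor against Lyso of -0.04 (adjusted p = 0.97, edgeR) and -0.02 (adjusted p = 0.98). Gm4951 had 3.25, 5.84 and 17.4 CPM in Tumor and 7.64, 9.22 and 10.8 CPM in Lyso. Irgq, a family member with a divergent GTPase domain, ran from 27.9 to 46.3 CPM over all 12 libraries and was not called in any comparison against WT (-0.47 in Lyso, adjusted p = 0.13, edgeR, and -0.07 in Tumor, adjusted p = 0.81). Gm5431, 9930111J21Rik1 and Irgc1 had too few counts to be tested.

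The genes that carry the interferon signal to the family were read next. Of 15 signalling genes 5 were called higher in Lyso against WT, with a median log2 fold change of 0.84, and 2 in Tumor, with a median of 0.22, beside 2.43% and 8.56% of all genes tested. Irf1, a transcription factor that binds ISRE motifs, had 4.53, 8.02 and 17.9 CPM in WT, 35.4, 64.6 and 173 CPM in Tumor and 658, 746 and 758 CPM in Lyso. Its log2 fold change was 5.89 in Lyso (adjusted p = 0.00019, edgeR) and 2.91 in Tumor (adjusted p = 0.002), and its Tumor libraries had the same order as those of the family. Irf8, another ISRE-binding factor, had 1 count in WT, 3.25, 9.26 and 29.7 CPM in Tumor and 51.8, 54.9 and 54.3 CPM in Lyso. Irf8 passed the filter on low counts only through Tumor and Lyso, so the counts of this list are a description. Socs1, an inhibitor of the interferon gamma receptor pathway, was higher in Lyso by 4.56 (adjusted p = 0.00021, edgeR), as were Irf2, a repressor of ISRE genes, by 1.64 (adjusted p = 0.00026) and Stat2 by 3.35 (adjusted p = 0.00084).

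Neither receptor gene was called. Ifngr1, a chain of the interferon gamma receptor, had log2 fold changes of -0.29 in Lyso (adjusted p = 0.383, edgeR) and 0.58 in Tumor (adjusted p = 0.0313), where the adjusted p passed and the fold did not. Ifngr2, the other chain, had 0.04 and 0.15. None of the 8 interferon genes examined had enough counts for a test. Ifng itself had 2, 0 and 5 counts in Lyso 1, 2 and 3, 1 count in Tumor 4 and 0 in the other libraries, so its transcript was at or near the floor. The 10 autophagy conjugation genes were called in 0 of 10 cases in Lyso and in Tumor against WT by edgeR and by DESeq2. An unadjusted p under 0.05 from edgeR was reached by 0 of them in Lyso and 3 in Tumor. Over all 14924 genes tested the numbers were 2789 and 4791. Atg5, which joins Atg12 in the conjugate needed for loading effector GTPases onto vacuoles, had log2 fold changes of -0.14 and -0.26, Atg7 0.07 and -0.01, and Gabarapl2 0.17 and -0.47. In Tumor Atg3 (-0.47, adjusted p = 0.03, edgeR) and Map1lc3b (0.52, adjusted p = 0.0473) passed the adjusted p but not the fold. The list's median was -0.02 in Lyso and -0.12 in Tumor.

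Other interferon-responsive genes gave the family's changes a context. Of 26 tested genes of an interferon gamma list, 21 were called higher in Lyso and 19 in Tumor against WT, with medians of 4.73 and 3.69. The shares over all genes tested were 2.43% and 8.56%. Some genes of the list, such as Gbp6, Cxcl9 and Nos2, passed the filter on low counts only through Tumor or Lyso, so the counts are a description. Gbp6, of the guanylate-binding proteins, which act on the same vacuoles, was higher by 7.12 in Lyso (adjusted p = 0.00026, edgeR) and by 3.87 in Tumor (adjusted p = 0.0066). Where every member of the family was lower in Tumor than in Lyso, 14 genes of this list were also called lower and 4 higher in Tumor (median -1.55), beside 4.14% and 8.78% of all genes tested. The 4 included Nos2, the inducible nitric oxide synthase, at 25.7, 28.8 and 7.77 CPM in Tumor and at most 0.0943 CPM in Lyso, and Cxcl9, a T-cell attracting chemokine, at 17.9, 23.0 and 48.0 CPM in Tumor and at most 3.17 CPM in Lyso. Of 15 genes led mainly by type I interferon, 3 were called higher in Lyso (Zbp1, Mx1 and Oasl2) and 1 in Tumor (Zbp1) against WT, beside 2.43% and 8.56% of all genes tested, with medians of 2.05 and 0.11. Zbp1 passed the filter on low counts only through Tumor and Lyso, so the counts of this list are also a description. Against the relapsed lines 11 of the 15 were called higher in Lyso, with a median of 2.89, beside 3.21% of all genes tested. Several stood high in WT 3, such as Isg15 at 48.0 CPM beside 5.09 and 3.80 CPM in WT 1 and WT 2.

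The 7 genes rose and fell together. Over all 12 libraries the correlation of log2 CPM between pairs of members ran from 0.861 to 0.984 across the 21 pairs, and over the 9 cultured libraries from 0.919 to 0.989. These values describe libraries that share group and depth. The genes outside the family whose profile came closest to the members' mean over 12 libraries were Erap1, an aminopeptidase that trims peptides for MHC class I (Pearson r = 0.996), Gbp6 (0.993), Ccrl2, an atypical chemokine receptor (0.989), and Irf1 (0.987), beside the family gene F830016B08Rik (0.988). Over the 9 cultured libraries they were Ccrl2 (0.996), Erap1 (0.995), Slfn8 (0.995), Stat3 (0.994) and Gbp6 (0.994). Erap1 had 17.0, 18.6 and 35.7 CPM in WT, 42.9, 63.2 and 104.5 CPM in Tumor and 138, 155 and 157 CPM in Lyso, a much narrower range than any member.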

How the data were processed

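The authors trimmed reads with fastp 0.19.6, aligned them to GRCm38 with STAR 2.7.1a and used DESeq2 1.24.0, as listed in the submitters' processing notes, and deposited raw counts per gene for 12 libraries with no normalization. Reads matching several places (11.35% to 14.91% of reads) or several genes are not in the counts. The strand setting and annotation release are not given in the sources used here. Rows for uncounted reads (4) stayed out of all fits. Symbols and positions came from GENCODE M21 on GRCm38, which named 54079 identifiers, and promoters from RefSeq.

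From the counts, edgeR 4.0.16 (R 4.3.3, glmQLFit and glmQLFTest, TMM, filterByExpr) took the 12 libraries in a single fit of 14924 genes, all of which entered the Benjamini-Hochberg adjustment. Calls needed an adjusted p under 0.05 and a log2 fold change above 1 or below -1. Dividing the log2 fold change by the square root of F gave the standard error (SE). CPM were scaled with the TMM factors. DESeq2 1.42.0, other scalings, filters, controls and libraries left out were alternatives. The fit was tested on simulated data. Tables and figures used Python 3.11.15 with pandas 2.3.3, scipy 1.17.1 and matplotlib 3.10.9. No deposited column was left unmapped. The members and gene lists were chosen with earlier results of these data known. All 7 members are named in every comparison, lists of up to 10 genes are described by their counts and values, and from longer lists genes among those with the smallest p are named. Nos2, Cxcl9, Isg15, Ifngr1 and Ifngr2 were partly chosen after their values were seen. Usp18, B2m, Cd3d and Cd3e are also named outside that rule. Depth per library ranged from 1667398 to 16402629 counts on genes, and 3 counts were used as the floor. One gene of the signalling list is not reported here.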

Additional observations from a re-analysis of the deposited data

How the results depend on the processing

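Across the alternatives, 804 of 863 values of single members kept their direction and their side of the threshold, 40 lost a call, 11 gained one and 8 reversed, and no called value reversed. The members called higher in Lyso against WT numbered 7 in the analysis reported, 1 with at least 10 counts in every library compared, where only Irgm1 could be tested, and 4 with WT 3 as the only control. Under the same count minimum, Tumor against WT gave 0 of 1 tested, Tumor against the relapsed lines 2 of 4 and Lyso against the relapsed lines 4 of 4. Without a filter on low counts, 1 member (Ifi47) was called higher in the relapsed lines. Members called lower in Tumor against Lyso numbered 6 in the analysis reported, 1 with DESeq2, 3 with DESeq2 and its outlier filter off, which was added after seeing the data, and 2 with glmTreat. The cause of these differences was not tested. DESeq2's outlier filter gave no adjusted p for 2 members, Irgm1 and Irgm2, in Lyso against WT. With 1 library left out in turn, the counts ran from 3 to 6 for Tumor against the relapsed lines and from 2 to 7 for Tumor against Lyso. Under the same procedure Irgm1 in Tumor against WT ran from -0.0376 to 2.87, and in the relapsed lines against WT Irgm1 ran from -1.54 to 1.22, Irgm2 from -1.42 to 1.56 and Igtp from -2.05 to 1.56 on the log2 scale. Igtp in the relapsed lines was 0.0255 with DESeq2, with or without its outlier filter. Library size as the only scaling shifted the median of all genes by -0.10 in Lyso against WT, beside a smallest member change of 4.25. Replicate numbers are shared by WT, Lyso and Tumor, but libraries of the same number did not deviate together (correlations from -0.008 to 0.065 over 7 pairs), so the numbers give no pairing. With the replicate block, 7 members were called higher in Lyso against WT, 4 of 6 tested in Tumor against WT and 7 lower in Tumor against Lyso. Depth limits the effector genes most, since 3 counts stand for 1.7 CPM in WT 1 and 0.177 CPM in WT 3.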

Other observations

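WT 3, the deep untreated library, carried a broader interferon profile than WT 1 and WT 2. Its 15 type I interferon-led genes summed to 590 CPM, beside at most 128 CPM in the other untreated libraries, with Usp18, a brake on type I interferon signalling, at 40.8 CPM beside 1.7 and 0.422 CPM, and Irf7, a driver of type I interferon production, at 18.1 CPM beside 0 and 1.27 CPM. The regulatory GTPase genes shared this pattern, Irgm1 being 13.4-fold and 6.72-fold higher in WT 3 than in WT 1 and WT 2. The effector gene Ifi47 went the same way, with 3.66 CPM beside 0.566 and 1.27 CPM, while Tgtp1 and Iigp1 had 0 and 5 counts in WT 3. Depth and this profile cannot be told apart within WT, where 1 library is deep.

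Among the relapsed lines Rel carried the highest level of the 6 detected members and also 1091 CPM of B2m, the light chain of MHC class I, beside 447 and 256 CPM in ITF1 and ITM.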
